A study of Mus musculus with 24 samples.

Results

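The 37 genes described here encode the DNA replication machinery and its supply: the replicative helicase, the factors that load and fire it, the polymerases, the sliding clamp with its loader, the nucleotide enzymes, cyclin E and a histone chaperone. They were picked by name for their known function from the 55202 genes kept from the deposited expression table, with earlier results of these data known. No threshold on a measured value was used. All 37 had counts in the tumours and all 37 were tested.

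The tumours were allografts of CT26.WT, a colon carcinoma cell line of Balb/c mouse origin, grown in male mice labelled wild-type. Immunocompetent Balb/c hosts on a restricted diet (0.172% methionine) were set against Balb/c hosts on a high diet (0.86% methionine). Likewise, NSG hosts, an immunodeficient strain, on 0.172% methionine were set against NSG hosts on 0.86% methionine. All animals had received their diet for 3-4 weeks, and RNA-seq was run on 6 libraries per group, 24 in all. The labels give no ages. NSG and Balb/c mice differ in immune cells, strain background and match to the graft at once, and the comparison of hosts cannot tell these apart. In bulk tumours, fewer cycling cells and less RNA per cycling cell cannot be told apart either.

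Before a cell divides it must copy its genome once. In late G1 the origin recognition complex, with its partners, loads the MCM helicase onto origins, a step called licensing. In S phase the loaded helicases are fired, and the polymerases copy both strands behind them. Most of these genes are transcribed together at the G1 to S transition under the E2F factors. In tumours their transcripts are widely read as a sign of proliferation. Methionine gives the methyl donor S-adenosylmethionine, and through the folate cycle methionine metabolism is tied to thymidylate synthesis.

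Of the 276 pairs of libraries, 2 were nearly identical: 19 with 23 and 20 with 24, both from the Balb/c group on 0.86% methionine. Over genes with few counts (20 to 100) their squared differences averaged 1.21 and 1.17 times those expected from counting noise, against at least 2.45 times for other pairs. Over all genes with 20 or more counts the squared differences averaged 2.58 and 3.96 times those expected, beyond counting noise alone. The next closest pair over genes with few counts, libraries 1 and 11, stood at 26.1 times on that wider measure. Each such pair was averaged and counted as 1 tumour, named 19-23 and 20-24 below, which left 4 tumours in that group and 6 in each of the others. Assigned counts ranged from 31339425 to 57162217 per library. Values below are normalised counts per tumour, and differences are on the deposited log2 scale, where 1 is close to a doubling for abundant genes. The labels do not say outright that libraries came from separate animals, and p-values therefore cover only the spread among these tumours. Among markers of colon epithelium and carcinoma, Krt20 (1127.7 to 32791.4 counts over tumours of all groups) and Krt18 (371.9 to 2139.9) were present, while Vil1 was at 5.5 counts or fewer and Epcam at 77.0 or fewer.

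The E2F motif was searched in the 250 bases before and 50 bases after the RefSeq start (GRCm38.p6), as TTTCCCGC, TTTGGCGC, TTTCGCGC or TTTGCCGC on either strand. It was found in 12 of the 33 windows that belong to 29 of these genes (36.4%), against 744 of all 32851 promoter windows (2.26%). The 12 genes were Mcm3, Mcm5, Mcm6, Mcm7, Orc1, Cdc6, Cdt1, Gins3, Pola1, Pold1, Rfc3 and Lig1. The shorter CCAAT motif, searched on both strands, was in 18 of the 33 windows (54.5%), against 37.41% of all windows. Mcm4, Gins1, Gins2, Gins4, Prim2, Pole, Rfc2 and Ccne2 have no entry in the promoter table used and were not searched. A match describes letters in a window and is not evidence of binding. The 250 bases upstream of 4 genes are shown 5′ to 3′ on the strand of the gene, with E2F matches in capitals. They lie free of annotated exons and stand for 3 kinds of promoter seen here: several matches (Mcm6, Mcm5), 1 match (Pola1) and none (Mcm2).
Mcm6, chr1:128359706-128359955, minus strand: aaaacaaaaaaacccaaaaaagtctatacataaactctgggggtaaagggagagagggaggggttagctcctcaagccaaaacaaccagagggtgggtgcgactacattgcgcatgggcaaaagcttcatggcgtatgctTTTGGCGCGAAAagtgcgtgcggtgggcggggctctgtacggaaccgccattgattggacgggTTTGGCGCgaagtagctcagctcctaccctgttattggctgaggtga
Mcm5, chr8:75109259-75109508, plus strand: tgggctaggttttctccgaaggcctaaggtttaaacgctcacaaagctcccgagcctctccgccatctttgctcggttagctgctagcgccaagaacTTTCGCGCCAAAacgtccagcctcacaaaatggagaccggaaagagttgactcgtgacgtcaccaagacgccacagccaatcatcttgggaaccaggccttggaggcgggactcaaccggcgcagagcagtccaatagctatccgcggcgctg
Pola1, chrX:93632156-93632405, minus strand: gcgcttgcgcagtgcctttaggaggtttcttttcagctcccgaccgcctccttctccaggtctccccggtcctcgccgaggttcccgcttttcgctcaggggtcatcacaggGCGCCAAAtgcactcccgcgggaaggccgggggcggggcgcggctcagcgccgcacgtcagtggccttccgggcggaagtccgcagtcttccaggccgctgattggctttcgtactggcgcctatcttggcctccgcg
Mcm2, chr6:88898781-88899030, minus strand: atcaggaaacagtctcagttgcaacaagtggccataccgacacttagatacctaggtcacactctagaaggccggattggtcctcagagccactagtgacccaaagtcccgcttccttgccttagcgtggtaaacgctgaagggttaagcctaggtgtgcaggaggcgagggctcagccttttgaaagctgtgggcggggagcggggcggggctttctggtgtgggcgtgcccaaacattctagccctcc
In Mcm6 the matches span -110 to -99, where 2 of them overlap by 4 bases, and -47 to -40, counted from the start site. In Mcm5 a pair of overlapping matches spans -153 to -142, and in Pola1 the match spans -138 to -131.

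The replication genes had overlapping levels in all 4 groups. In Balb/c hosts on 0.172% methionine they took 0.286 to 0.338% of assigned counts per tumour, and in Balb/c hosts on 0.86% methionine 0.286 to 0.364%. The share was 0.258 to 0.348% in NSG hosts on 0.172% methionine, against 0.268 to 0.335% in NSG hosts on 0.86% methionine. These ranges overlap throughout. The mean log2 value over the 37 genes was 11.2 ± 0.107 in restricted Balb/c tumours (SD, n = 6) and 11.19 ± 0.076 in Balb/c tumours on 0.86% (n = 4). It was 11.23 ± 0.158 in restricted NSG tumours and 11.17 ± 0.111 in NSG tumours on 0.86% (n = 6 each).

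**Figure D1:**
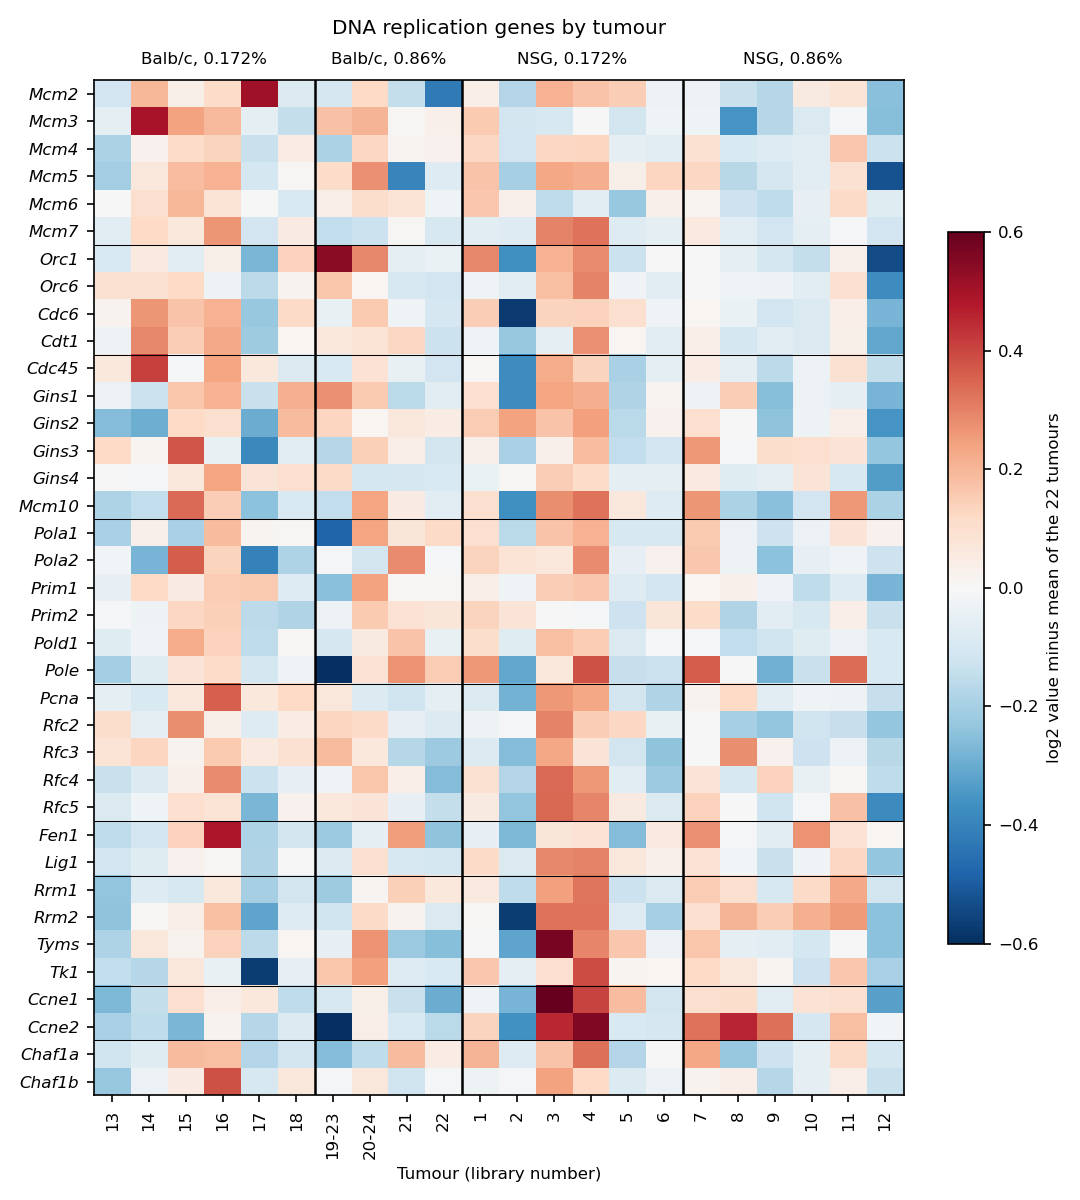
Each gene's log2 value in each of the 22 tumours, minus its mean over all tumours, with genes grouped by role and tumours by group. Colour varies more between tumours of 1 group than between groups: tumours 3 and 4 are high and tumours 2, 12 and 17 low for many genes at once.

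No gene of the 37 passed the test for diet in either host, with limma and Benjamini-Hochberg adjustment over 38019 genes at 0.05. In Balb/c hosts (0.172% minus 0.86%) 0 of 37 were called, beside a background of 0.00263% of all genes, and 1 had an unadjusted p under 0.05, beside 7.48% of all genes. In NSG hosts 0 of 37 were called, beside 0.00526% of all genes, and 1 had an unadjusted p under 0.05, beside 6.72%. Among abundant genes, the 11510 with a mean log2 value of at least 8, the shares under that unadjusted limit were 9.68% in Balb/c hosts and 9.8% in NSG hosts. The limma-voom count model also called 0 in each host, with 1 gene in each under an unadjusted p of 0.05. The differences ran from -0.22 to 0.25 in Balb/c hosts, with a median of 0.03 and 23 of 37 above 0, beside 55.6% of abundant genes and a median over those of 0.02. In NSG hosts they ran from -0.15 to 0.24, with a median of 0.09 and 28 of 37 above 0, beside 53.1% of abundant genes and a median over those of 0.01. That NSG median was 0.05 without tumour 3 or tumour 4 and 0.13 without tumour 2, where the number under an unadjusted p of 0.05 was 5. Every 95% interval of the 37 genes in both diet comparisons lay within a 1.5-fold change in either direction.

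The effect of diet was also compared between the hosts, as the Balb/c difference minus the NSG difference. The test called 0 of 37 genes and 0 of all 38019 genes (0%). Under an unadjusted p of 0.05 lay 1 gene by limma, beside 6.44% of all genes, and 3 by voom, which also called 0. The contrast of diets averaged over hosts called 0 of 37 beside 0% of all genes, with 2 genes under an unadjusted p of 0.05 by limma (beside 7.2%) and 1 by voom, which called 0. For the difference between hosts the intervals were wider: 32 of 37 lay within 1.5-fold, and those of Orc1, Gins2, Fen1, Tk1 and Ccne2 did not.

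Between hosts the same genes were also not called, although many other genes were. On 0.172% methionine (Balb/c minus NSG) 0 of 37 were called beside 2.09% of all genes, and 2 had an unadjusted p under 0.05 (Tk1 and Lig1), beside 13.7%. That count was 0 without tumour 4 or tumour 17, and 5 without tumour 2. On 0.86% methionine 0 of 37 were called beside 2.53% of all genes, and 4 had an unadjusted p under 0.05 (Mcm3, Orc1, Rfc2 and Ccne2), beside 12.4%. Without tumour 19-23 that count was 0, and without tumour 20-24 it was 1. With the diets averaged 0 of 37 were called beside 5.51% of all genes, and 2 had an unadjusted p under 0.05 (Mcm3 and Ccne2), beside 16.2% of all and 24.3% of abundant genes. The voom model called 0 in each of these 3 comparisons, with 1, 4 and 3 genes under an unadjusted p of 0.05. The median difference was -0.03 on 0.172% methionine, 0.02 on 0.86% methionine and -0.01 averaged, against -0.03 for abundant genes in each. On 0.86% methionine, 35 of 37 intervals lay within 1.5-fold, all but those of Orc1 and Ccne2. All 37 did on 0.172% methionine and in the average.

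The host comparisons were made between tumours of different cellular make-up. All 8 T cell markers were called higher in Balb/c hosts on 0.172% methionine and 6 of 8 on 0.86%. Their summed counts were 32.6 to 1002.7 in Balb/c hosts on 0.172%, against 8.3 to 14.1 in NSG hosts, and 141.8 to 517.7 in Balb/c hosts on 0.86%, against 8.3 to 25.6 in NSG hosts. For 7 cytotoxic and NK markers, of which 6 were called higher on each diet, the sums were 145.3 to 10261.1 in Balb/c hosts on 0.172%, against 85.8 to 189.5 in NSG hosts. On 0.86% they were 1541.1 to 5375.2 in Balb/c hosts, against 77.5 to 112.7 in NSG hosts. Both sums were thus higher at the median in Balb/c hosts. The ranges of the cytotoxic and NK sums overlapped on 0.172% through Ccl5, at 48.4 to 212.3 counts in Balb/c tumours against 84.0 to 186.8 in NSG tumours. The other 6 markers did not overlap between hosts on that diet (beside 1.77% of all genes). Closest was Klrb1c, at 2.1 counts or more in Balb/c tumours against 1.8 or fewer in NSG tumours. Ncr1, an NK cell receptor, was at 0 in every NSG tumour. The part of these cells in the values of the replication genes was not tested.

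**Figure D2:**
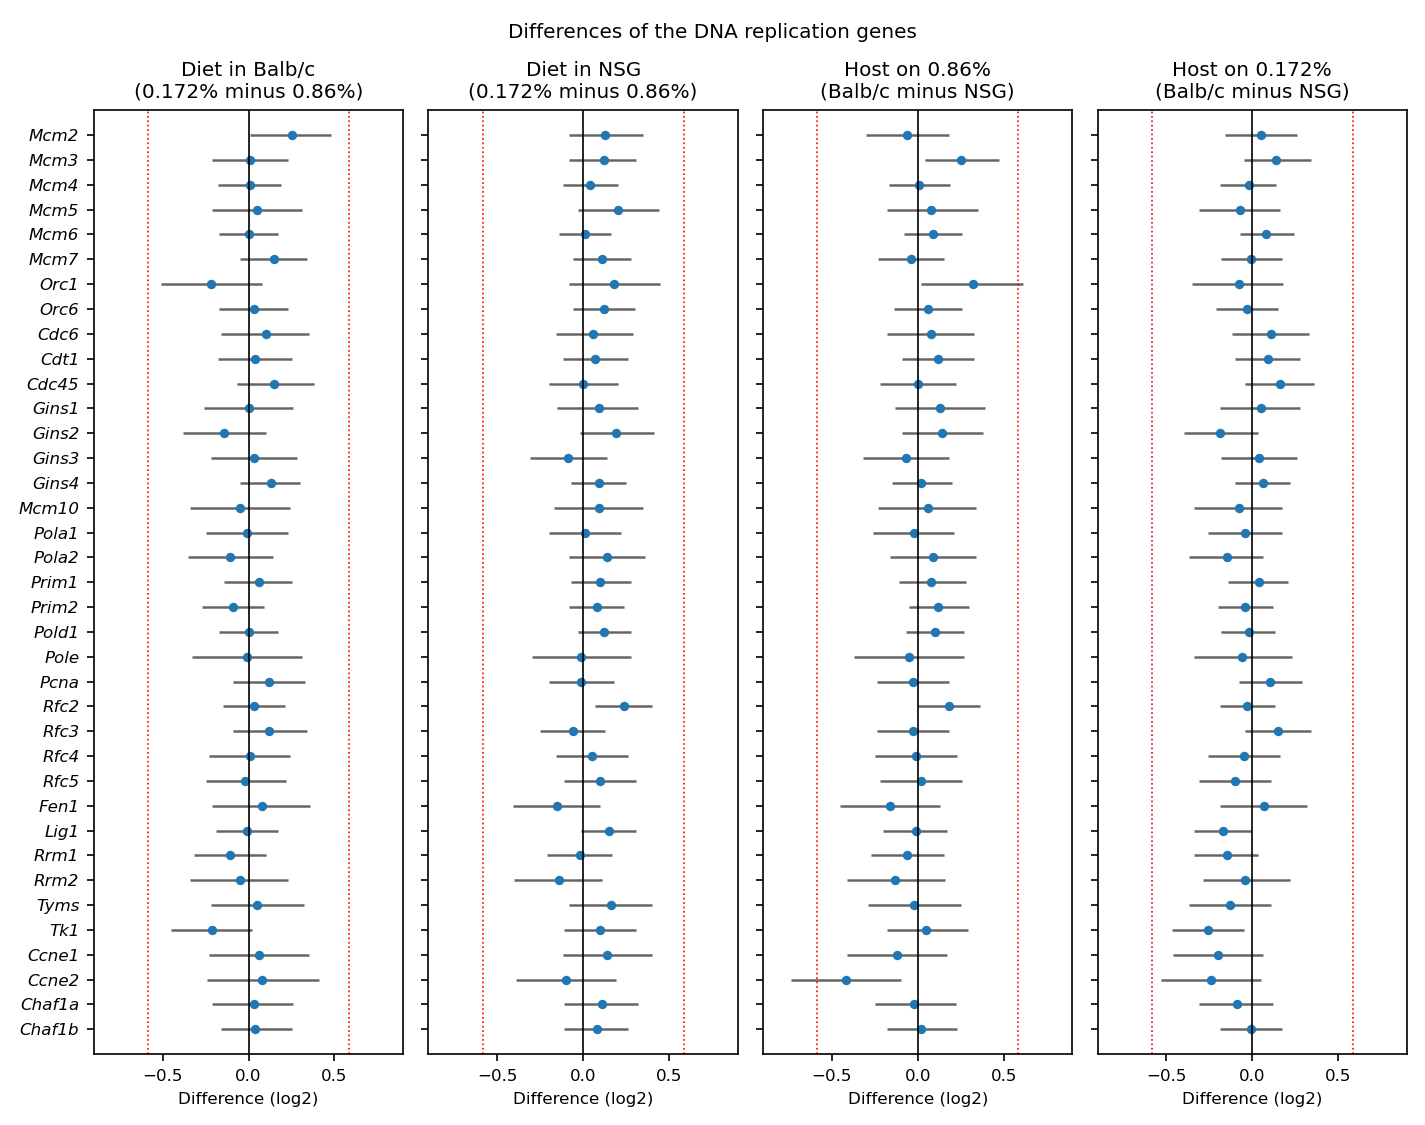
Difference of each gene (point, log2) with its 95% interval (line) for diet within each host and host within each diet; dotted red lines mark a 1.5-fold change. Most intervals cross 0, and the widest departures are those of Ccne2 and Orc1 between hosts on 0.86% methionine.

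The MCM helicase is a ring of 6 related subunits that unwinds DNA at the fork. Of its 6 genes, 0 were called in any of the 7 contrasts. On restricted diet 5 of 6 differences were above 0 in Balb/c hosts and 6 of 6 in NSG hosts, with medians of 0.03 and 0.11. Mcm2 had the largest of them in Balb/c hosts. Its counts there were 6282.1 at the lowest, 7180.0 at the median and 9703.8 at the highest on 0.172% methionine, against 6358.5, 7408.9, 6170.9 and 5077.3 in the 4 tumours on 0.86%. The groups overlap, with tumour 17 the highest on 0.172% and tumour 22 the lowest on 0.86%. The difference was 0.25 ± 0.12 (SE), with a limma adjusted p of 0.643. It was 0.17 without tumour 17 and 0.15 without tumour 22. In NSG hosts Mcm2 differed by 0.13 ± 0.10, and averaged over hosts by 0.19 ± 0.08 (limma adjusted p 0.594).

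Mcm3, between hosts on 0.86% methionine, was the one gene of the 37 whose groups did not overlap, beside 4.26% of all genes and 6.4% of abundant genes. Between hosts on 0.172% methionine 0 of 37 stood apart (1.77% of all genes), and with diet 0 in Balb/c hosts (0.805%) and 0 in NSG hosts (0.65%). On 0.86% methionine it had 7435.8, 7583.6, 6618.8 and 6727.8 counts in Balb/c tumours, against 5153.5 to 6556.5 in NSG tumours with a median of 6030.0. The lowest Balb/c tumour thus lay just above the highest NSG tumour. The difference was 0.25 ± 0.11, with a limma adjusted p of 0.282. On 0.172% methionine the groups overlapped, with 5971.6 to 9289.1 counts in Balb/c tumours (median 6950.4) against 6093.5 to 7337.6 in NSG tumours (median 6313.4), and a difference of 0.14 ± 0.09. Averaged over diets it was 0.20 ± 0.07, with a limma adjusted p of 0.115, and 0.0465 when the near-identical libraries were counted separately. Mcm6 showed the smallest spread within groups, an SD of 0.11, and differed by 0.09 ± 0.05 between hosts. Mcm5 in NSG hosts had 4876.0 to 6591.1 counts on 0.172% methionine (median 6214.0), against 3895.8 to 6118.6 on 0.86% (median 5284.3), and differed by 0.20 ± 0.11 with an adjusted p of 0.795. Mcm4 differed by no more than 0.04 in any single diet or host comparison. Mcm7 differed by 0.15 ± 0.09 with diet in Balb/c hosts, by 0.11 ± 0.08 in NSG hosts, and by 0.13 ± 0.06 averaged over hosts (adjusted p 0.696).

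The licensing genes are Orc1 and Orc6, subunits of the origin recognition complex, and Cdc6 and Cdt1, which bring the helicase to it. None of the 4 was called in any contrast. Orc1 had 205.3 to 284.4 counts in restricted Balb/c tumours (median 252.3), against 385.6, 318.8, 243.8 and 247.3 in Balb/c tumours on 0.86%. In NSG hosts it had 191.0 to 318.6 counts on 0.172% methionine (median 277.8), against 166.6 to 261.7 on 0.86% (median 239.1). Groups overlapped in both hosts, and the point estimates pointed in opposite directions, -0.22 ± 0.14 in Balb/c hosts and 0.18 ± 0.13 in NSG hosts. The difference between them was -0.40 ± 0.19, with an adjusted p of 0.774. Between hosts on 0.86% methionine Orc1 differed by 0.32 ± 0.14 (adjusted p 0.354), with tumours 19-23 and 20-24 above every NSG tumour on that diet. Orc1 has few counts for this list, and 10.8% of its exon length is shared with Gm12743 on the opposite strand. Orc6, Cdc6 and Cdt1 differed by 0.12 or less in each single comparison, and all 4 genes had a positive host difference on 0.86% methionine (median 0.10).

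Firing needs Cdc45 and the GINS complex (Gins1 to Gins4), which join the helicase to make it active, and Mcm10, which helps to activate it. None of these 6 genes was called. Gins2 had 891.5 to 1261.4 counts in restricted Balb/c tumours (median 1048.6), against 1210.0, 1113.6, 1155.0 and 1136.5 in those on 0.86%. In NSG hosts it had 982.5 to 1314.9 counts on 0.172% (median 1237.0), against 853.6 to 1185.4 on 0.86% (median 1090.0). All groups overlapped. The diet effect was -0.14 ± 0.12 in Balb/c hosts and 0.19 ± 0.10 in NSG hosts, and the difference between them was -0.33 ± 0.15, with an unadjusted p of 0.0421 and an adjusted p of 0.756. Between hosts on 0.172% methionine Gins2 differed by -0.19 ± 0.10 (adjusted p 0.453). Gse1, on the opposite strand, shares 67.3% of the exon length of Gins2, and strandedness of the counts is not settled. Gins4 differed by 0.11 ± 0.06 with diet averaged over hosts (adjusted p 0.744). Cdc45 differed by 0.15 ± 0.11 with diet in Balb/c hosts and by 0.16 ± 0.10 between hosts on 0.172% methionine. Gins1, Gins3 and Mcm10 lay between -0.09 and 0.13 in every single comparison.

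The polymerase genes differed little between groups. Polymerase alpha, which begins each strand, is made of Pola1, Pola2 and the primase subunits Prim1 and Prim2, while Pold1 and Pole are the catalytic subunits of the enzymes that extend the lagging and the leading strand. Their 6 differences ran from -0.11 to 0.06 with diet in Balb/c hosts and from -0.01 to 0.14 in NSG hosts. Between hosts they ran from -0.15 to 0.04 on 0.172% methionine and from -0.05 to 0.12 on 0.86%, and 0 were called. Pola1 had medians of 3519.1 counts in restricted Balb/c tumours, 3722.3 in Balb/c tumours on 0.86%, 3502.0 in restricted NSG tumours and 3480.0 in NSG tumours on 0.86%. Pole shared with Ccne2 the widest spread within groups, an SD of 0.26, and tumour 19-23 had 2072.1 counts of it while the other 3 tumours of its group held 3360.2 to 3825.7.

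Pcna, the sliding clamp that holds polymerases on DNA, had the highest level per length of all 37 genes. It differed by 0.12 ± 0.10 with diet in Balb/c hosts and by -0.01 ± 0.09 in NSG hosts. Rfc2, a subunit of the clamp loader, had the smallest unadjusted diet p of the list. In NSG hosts it had 2913.1 to 3698.4 counts on 0.172% methionine (median 3133.9), against 2547.1 to 3002.5 on 0.86% (median 2672.3). The groups overlap by a narrow margin. The difference was 0.24 ± 0.08, with an unadjusted p of 0.00583 and a limma adjusted p of 0.612, and it stayed between 0.19 and 0.27 in every alternative run. In Balb/c hosts the counts were 2849.4 to 3657.3 on 0.172% methionine (median 3095.8), against 3290.7, 3262.9, 2901.2 and 2838.4 on 0.86%, a difference of 0.03 ± 0.09. The test of the difference between hosts gave -0.21 ± 0.12 (adjusted p 0.816), and the average over hosts was 0.13 ± 0.06 (adjusted p 0.644). Between hosts on 0.86% methionine Rfc2 was 0.18 ± 0.09 higher in Balb/c tumours, with an adjusted p of 0.396, and 15.1% of its exon length is shared with Lat2 on the opposite strand. The other loader genes, Rfc3, Rfc4 and Rfc5, differed by no more than 0.15 in either direction in any single comparison.

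Fen1 trims the flaps of Okazaki fragments and Lig1 seals them. Fen1 averaged 74.4 counts over tumours, the fewest of the 37 genes, and 84.2% of its exon length is shared with Tmem258 and Gm10143 on the opposite strand. Tmem258 had 1957.4 to 3474.6 counts per tumour. The part of this overlap in the low Fen1 counts was not tested. Lig1 had 4405.1 to 5082.7 counts in Balb/c tumours on 0.172% methionine (median 4866.2), against 4694.2 to 6148.0 in NSG tumours (median 5324.4). These groups overlap, and the difference was -0.17 ± 0.08, with a limma adjusted p of 0.323. With diet, Lig1 differed by -0.01 ± 0.09 in Balb/c hosts and by 0.15 ± 0.08 in NSG hosts, where the adjusted p was 0.769.

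Of the nucleotide genes, Rrm1 and Rrm2 form ribonucleotide reductase, Tyms makes thymidylate with a folate cofactor, and Tk1 salvages thymidine. Tk1 had 1853.6 to 2907.2 counts in Balb/c tumours on 0.172% methionine (median 2587.1), against 2672.8 to 3639.5 in NSG tumours (median 2884.9). The groups overlap, tumour 17 being the lowest. This host difference was -0.26 ± 0.10, with a limma adjusted p of 0.23. With diet, Tk1 differed by -0.21 ± 0.11 in Balb/c hosts, where tumours on 0.86% had 3114.8, 3300.5, 2625.5 and 2596.6 counts, and by 0.10 ± 0.10 in NSG hosts. The difference between those effects was -0.31 ± 0.15 (adjusted p 0.774). Tyms, the enzyme that links this list to folate, had 1890.3 to 2372.6 counts in restricted Balb/c tumours (median 2177.9), against 2078.7, 2604.9, 1838.9 and 1798.5 in Balb/c tumours on 0.86%. In NSG hosts it had 1722.5 to 3214.3 on 0.172% (median 2282.9), against 1811.8 to 2423.1 on 0.86% (median 2068.3). These groups overlapped in both hosts, with differences of 0.05 ± 0.13 and 0.16 ± 0.12. Rrm1 and Rrm2 were below 0 in both diet and both host comparisons, from -0.15 to -0.02, and 0 were called.

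Cyclin E, encoded by Ccne1 and Ccne2, activates the kinase that starts S phase. Ccne2 came nearest to the threshold of all 37 genes. On 0.86% methionine it had 693.4, 1169.5, 1065.6 and 1015.1 counts in Balb/c tumours, against 1057.8 to 1572.5 in NSG tumours (median 1364.0). On 0.172% it had 934.0 to 1155.1 counts in Balb/c tumours (median 1013.7), against 876.5 to 1687.8 in NSG tumours (median 1159.3). Balb/c tumours were lower on average on both diets and the groups overlapped on both. The difference was -0.42 ± 0.16 on 0.86% (adjusted p 0.202) and -0.24 ± 0.14 on 0.172% (adjusted p 0.488). Averaged over diets it was -0.33 ± 0.10, with a limma adjusted p of 0.0662 and a range of 0.0222 to 0.187 over the alternatives. It was 0.0222 without tumour 2 and 0.0402 without tumour 20-24. Ints8, on the opposite strand, shares 17.4% of its exon length. Ccne1 differed by -0.16 ± 0.09 in the same comparison (adjusted p 0.432). Chaf1a and Chaf1b, subunits of the chaperone that lays histones on new DNA, differed by no more than 0.11 in either direction in any single comparison, although 52.5% of the exon length of Chaf1a is shared with Ubxn6.

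The levels of the genes relative to each other were compared per length, as normalised counts per kilobase of the principal transcript averaged over the 22 tumours. Pcna stood at 8747.4 ± 954.2 (SD), then Mcm6 at 3363.7 ± 253.8, Mcm7 at 3281.5 ± 337.7 and Rrm2 at 3206.2 ± 482.0. Pcna lay above the others in every tumour, from 7147.5 to 11176.5, while Mcm6, Mcm7 and Rrm2 overlapped and cannot be ordered beyond their spread. At the low end stood Gins3 at 234.3 ± 29.7, Orc1 at 85.9 ± 16 and Fen1 at 31.3 ± 6.2. Genes on the opposite strand share 84.2% of the exon length of Fen1, 67.3% of that of Gins2 and 52.5% of that of Chaf1a. With strandedness unsettled, the levels of these genes per length are uncertain under either length. The 6 MCM genes, whose proteins form 1 ring, spanned 1595.1 (Mcm4) to 3363.7 (Mcm6). The 4 GINS genes, whose proteins also form 1 complex, spanned 234.3 (Gins3) to 1018.2 (Gins4). The middle of the order depends on the length used: with all annotated exons counted, Rrm1 ranks 12 in place of 5 and Tk1 ranks 21 in place of 8, while Pcna stays first and Orc1 and Fen1 last.

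**Figure D3:**
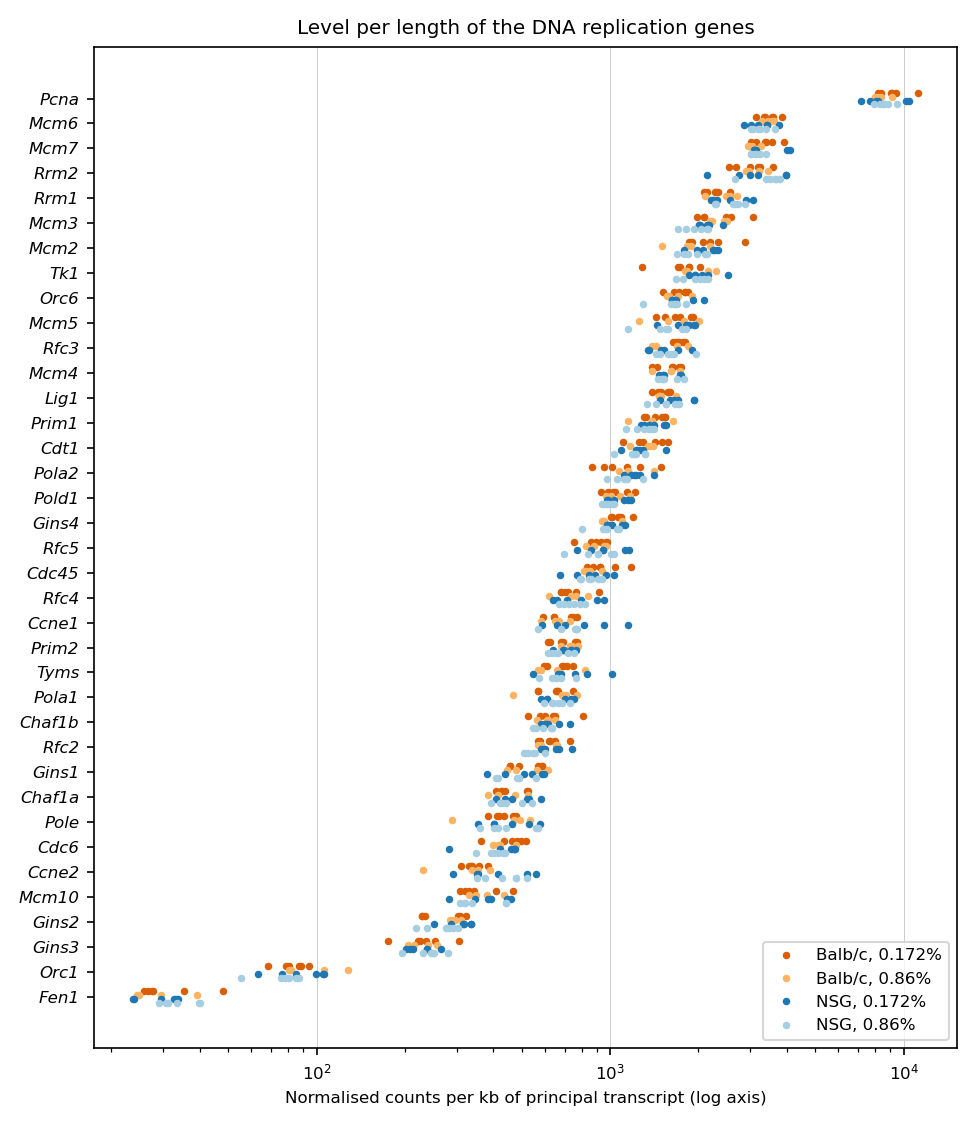
Level of each gene in each of the 22 tumours (points coloured by group), in normalised counts per kilobase of principal transcript on a log axis. The spread between genes, 31.3 to 8747.4 in the mean, is far wider than the spread between groups within any gene. The lowest, Fen1, shares 84.2% of its exon length with genes on the opposite strand, and its level per length is uncertain.

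Within groups the genes varied together from tumour to tumour. Correlations were taken over the 22 tumours after the group means were taken off, for the 36 members with a mean log2 value of at least 8, all but Fen1. They are a description, since all genes of a tumour share a library and its depth. Of 630 pairs, 609 (96.7%) were positive, with a median r of 0.49, and 299 (47.5%) were above 0.5. The same genes had a median r of -0.01 with the other abundant genes, and 5.88% of those pairs were above 0.5. A single component held 50.6% of their variation within groups. Rfc5 and Lig1 were the closest pair, at 0.95, followed by Rfc5 and Rrm2 at 0.88 and Mcm10 and Lig1 at 0.87. By role, the median r was 0.71 among licensing genes, 0.67 among clamp genes, 0.61 among nucleotide genes, 0.49 among polymerase genes, 0.44 among firing genes and 0.39 among MCM genes.

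Mcm6 stood apart from this pattern. Its median r with the other members was 0.11, and it was positive with 27 of 35, the lowest being Rfc3 at -0.26. Its closest partners were Prim2 at 0.78 and Mcm3 at 0.66. The Mcm6 promoter printed above holds 3 E2F matches, 2 of them overlapping, the most among the windows of these genes. Mcm3, Mcm5 and Mcm7, with 2 matches in a window, had a median r of 0.32, 0.54 and 0.56. With no match, Mcm2 had 0.30 and Rfc5 0.69. A link between matches and co-variation was not tested. The genes typically varied by an SD of 0.18 within groups, the same as the median of abundant genes, against gaps of 0.03 and 0.04 within the 2 near-identical library pairs.

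**Figure D4:**
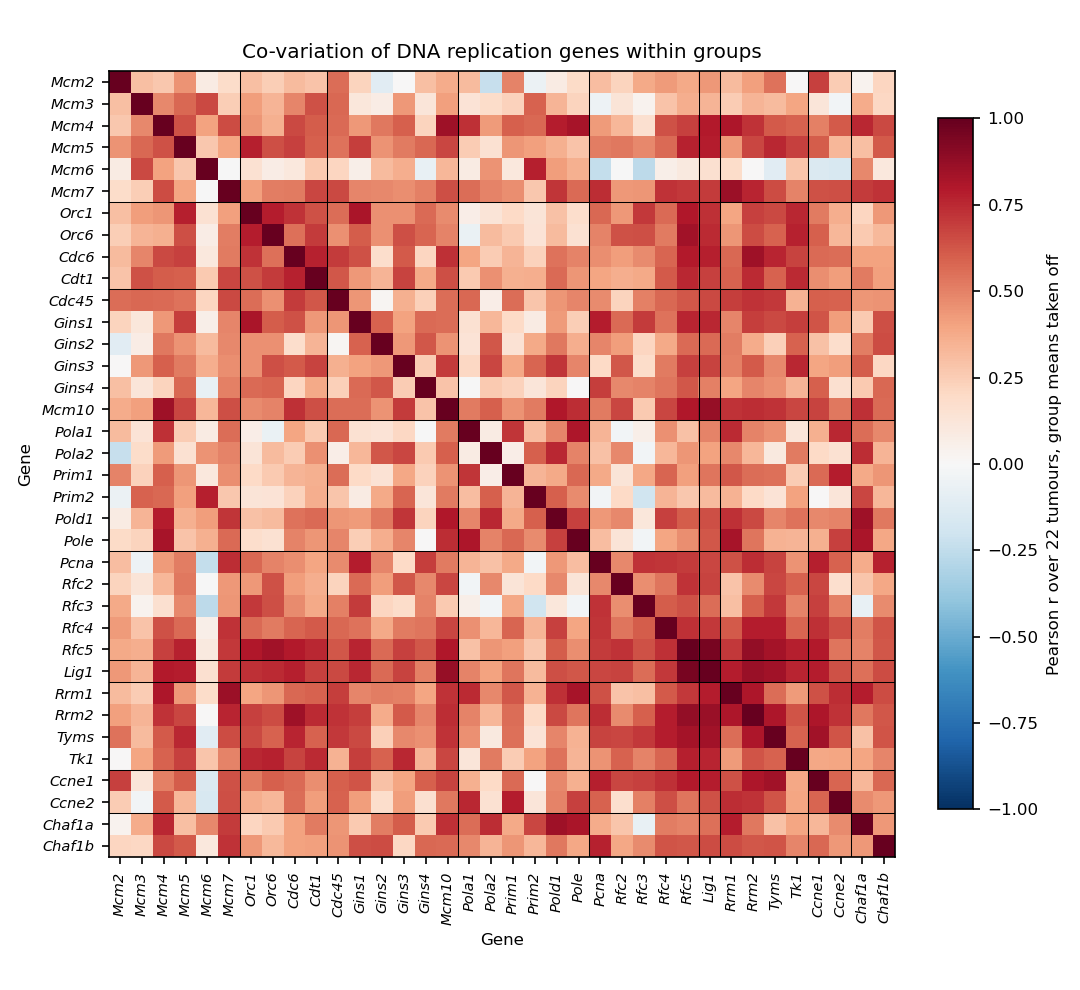
Pearson r between each pair of the 36 abundant members over 22 tumours, group means taken off, ordered by role. Most of the field is positive, the block around Rfc5, Lig1, Rrm2 and Tyms is the strongest, and the row of Mcm6 is pale, from -0.26 to 0.78.

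A list of 22 genes of G2 and mitosis was set beside the replication genes. Its mean varied closely with that of the replication genes within groups (r 0.88, rho 0.89, n = 22, and r 0.86 without tumours 2 and 4). Between hosts on restricted diet, 43.8% of abundant genes had differences above 0. In that comparison 21 of the 22 mitosis differences were negative, against 24 of 37 for the replication genes. A difference between the lists was not tested. There 1 of 22 was called (beside 2.09% of all genes), Bub1b, a spindle checkpoint kinase, at -0.35 ± 0.09 with a limma adjusted p of 0.0383. At an unadjusted p under 0.05, 14 were lower, beside 6.5% of all genes and 12.3% of abundant genes lower. The median was -0.24, against -0.03 for the 37 replication genes. On 0.86% methionine 11 of the 22 host differences were negative, with a median of -0.00, and limma gave 0 calls and 0 genes under an unadjusted p of 0.05. With diet in Balb/c hosts 21 of 22 were negative, while 55.6% of abundant genes were above 0. The median of the 22 was -0.19 and 0 were called. Under that limit 5 were lower, beside 4.65% of all genes and 4.3% of abundant genes lower. Bub1b had 2874.2 to 3830.8 counts in Balb/c tumours on 0.172% (median 3240.3), against 3887.0 to 4949.3 in NSG tumours (median 4140.9), with no overlap (beside 1.77% of all genes). Averaged over diets, 1 of the 22 was called, beside 5.51% of all genes and 7.77% of abundant genes. It was Ccnb1, the cyclin of mitotic entry, at -0.23 ± 0.06 with a limma adjusted p of 0.0306. Mki67, the proliferation marker, was not called, at -0.10 ± 0.19 on restricted diet.

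The mean log2 value of the replication genes minus that of the mitosis genes was taken in each tumour, where a library's size factor cancels. This measure was chosen after values had been seen and is given without a test. In Balb/c hosts it was -0.76 to -0.57 on 0.172% methionine (median -0.711), against -0.98 to -0.80 on 0.86% (median -0.894). In NSG hosts it was -0.97 to -0.78 on 0.172% (median -0.917), against -1.01 to -0.84 on 0.86% (median -0.916). The restricted Balb/c tumours lay above every other tumour, and the other groups overlapped. The margin was narrow, with tumour 15 at -0.759 against -0.782 in restricted NSG tumour 3. Tumour 17 was the highest at -0.57, and the other restricted Balb/c tumours lay from -0.76 to -0.70. In the replication mean by itself the restricted Balb/c tumours were not set apart. In the mitosis mean they were the lowest group on average, at 11.9 ± 0.156 (SD, n = 6). That mean was 12.08 ± 0.094 in Balb/c tumours on 0.86% (n = 4). It was 12.13 ± 0.122 in restricted NSG tumours and 12.09 ± 0.168 in NSG tumours on 0.86% (n = 6 each). Its range in restricted Balb/c tumours, 11.642 to 12.072, overlapped that of every other group, whose lowest values were 11.942, 11.949 and 11.858 in that order. Marker lists of other cells were compared between the same groups. Between the Balb/c diets all 8 macrophage markers had negative differences (median -0.49, 5 at an unadjusted p under 0.05). So had all 6 endothelium markers (median -0.49, 4 under it) and all 5 neutrophil markers (median -0.51, 1 under it). Of these 0 were called, and 4.65% of all genes and 4.3% of abundant genes were lower under that limit. All 5 red blood cell markers (median -0.62) and all 5 adipocyte markers (median -0.59) were negative too. All 5 skeletal muscle markers were positive (median 0.33). Macrophage marker sums were 25787.1 to 57876.4 in restricted Balb/c tumours, against 46904.0 to 65351.6 in Balb/c tumours on 0.86%. Endothelium sums were 2990.4 to 6081.8 in restricted Balb/c tumours, against 5183.4 to 9902.9 on 0.86%. Neutrophil sums were 368.7 to 720.2 in restricted Balb/c tumours (median 617.4), against 274.4 to 8355.3 on 0.86% (median 673.3). All of these ranges overlap. The cytotoxic and NK marker sums were widest in the restricted Balb/c group. The part of these cells in the measure was not tested.

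**Figure D5:**
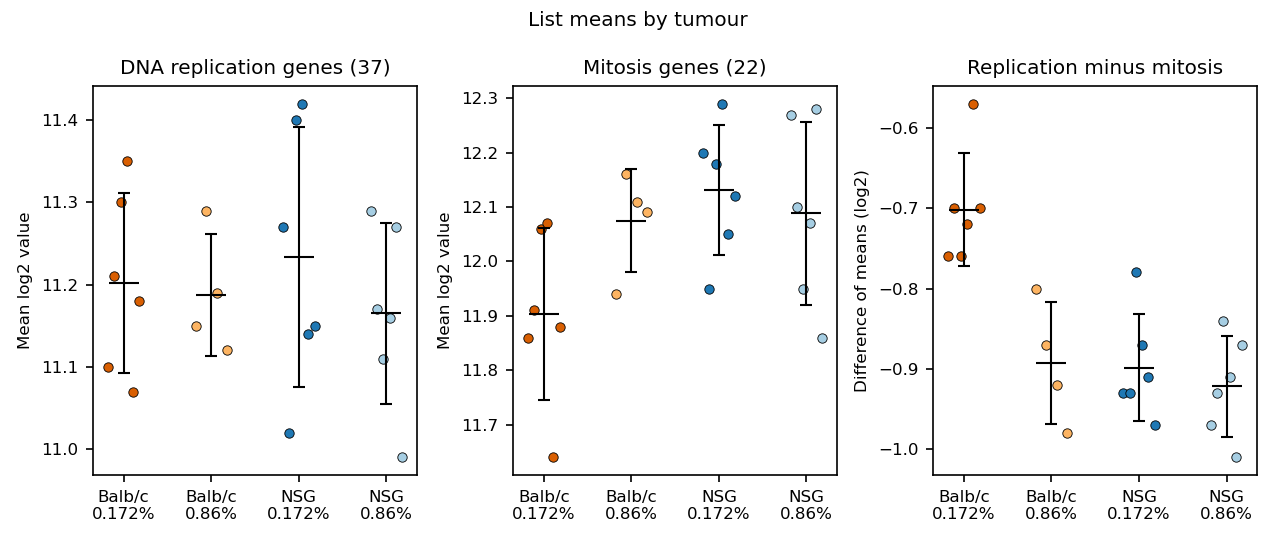
Mean log2 value per tumour of the 37 replication genes (left), of 22 mitosis genes (middle) and their difference (right); points are tumours, lines the mean and bars the SD. The replication means overlap in all 4 groups, while in the difference the restricted Balb/c tumours, from -0.76 to -0.57, lie above all others.

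Around this machinery, 89 further genes of replication, nucleotide supply, G1 to S control and chromatin assembly were examined as a list. With diet, 0 of 89 were called by limma in either host. In Balb/c hosts 7 had an unadjusted p under 0.05, beside 7.48% of all genes. In NSG hosts 9 did, beside 6.72%. All 9 were higher on 0.172% methionine, beside 3.28% of all and 6.62% of abundant genes. Of these, 5 were among 15 further nucleotide genes, of which 12 had differences above 0 (median 0.15). In Balb/c hosts 3 of those 15 were higher and 1 lower under that limit. The nucleotide genes as a group were not tested. In Balb/c hosts the smallest p among the 89 was that of Pole4, a small subunit of polymerase epsilon, at 0.35 ± 0.12 (limma adjusted p 0.386). Cdkn2b followed at -0.43 ± 0.17 (limma adjusted p 0.474). Its counts were low, 13.6 to 24.2 on 0.172% methionine against 22.6 to 49.6 on 0.86%. In NSG hosts the smallest were those of Dctpp1, which clears dCTP, at 0.38 ± 0.11 (limma adjusted p 0.496) and Nme1 at 0.35 ± 0.12 (limma adjusted p 0.617). Between hosts on 0.172% methionine 0 of 89 were called by limma and 13 had an unadjusted p under 0.05, near the 13.7% of all genes. On 0.86% methionine 2 of 89 were higher in Balb/c hosts, near the 2.53% of all genes called. Samhd1, which breaks down dNTPs and is abundant in immune cells, had 6350.7 to 10785.7 counts in Balb/c tumours (median 7066.5), against 4660.5 to 5461.6 in NSG tumours (median 5099.2), a difference of 0.59 ± 0.16 (limma adjusted p 0.0423). Cdkn2a, a cell cycle inhibitor, had 12.1 to 19.9 counts in Balb/c tumours, against 1.8 to 8.3 in NSG tumours, a difference of 0.61 ± 0.15 on a scale that understates change at such low counts (limma adjusted p 0.0223). On 0.86% methionine neither overlapped between hosts, beside 4.26% of all genes. On 0.172% both overlapped. Samhd1 then had 3499.9 to 7377.9 counts in Balb/c tumours (median 6339.7), against 5166.6 to 6552.5 in NSG tumours (median 5993.3). Cdkn2a had 6.7 to 14.9 counts, against 0.8 to 13.8. For Samhd1 the diet effect in Balb/c hosts minus that in NSG hosts was -0.61 ± 0.21 (limma adjusted p 0.609). The macrophage markers, Adgre1 and Csf1r among them, summed to 46904.0 to 65351.6 in Balb/c tumours on 0.86%, against 28109.3 to 48552.2 in NSG tumours. On 0.172% they summed to 25787.1 to 57876.4 in Balb/c tumours (median 37904.8), against 23641.6 to 43274.9 in NSG tumours (median 26211.3). Their part in Samhd1 was not tested.

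Averaged over diets, 3 of the 89 were called between hosts, beside 5.51% of all genes, so the list held no more calls than that share. Cdkn2a was 0.53 ± 0.10 higher in Balb/c hosts (adjusted p 0.00107). Ccnd2, a G1 cyclin, fell by 0.30 ± 0.07 on the log2 scale in Balb/c relative to NSG hosts, with a limma adjusted p of 0.0104. Its counts were 5677.4 to 7877.6 in Balb/c tumours on 0.172%, against 7289.0 to 8794.2 in NSG tumours, and 4376.4 to 6056.2 in Balb/c tumours on 0.86%, against 5558.5 to 7588.2 in NSG tumours. The groups overlapped on both diets. Orc4, a further subunit of the origin recognition complex, fell by 0.27 ± 0.07 (adjusted p 0.0125), with 1694.9 to 2422.0 counts in Balb/c tumours on 0.172%, against 2110.0 to 2516.6 in NSG tumours, and 1553.3 to 2143.8 on 0.86%, against 2244.3 to 2496.2 in NSG tumours. On 0.86% its groups did not overlap, beside 4.26% of all genes and 6.4% of abundant genes. Orc1 and Orc6, the subunits among the 37, differed by 0.12 ± 0.10 and 0.02 ± 0.07 in the same average.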

How the data were processed

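Tumour RNA was sequenced in 24 libraries, 6 per group of host and diet. STAR, featureCounts, DESeq2 and mm10 are named in the submitters' processing notes, without versions. The authors deposited log2 values with a floor of 4.0711 for a count of 0, which follow a variance-stabilised scale. Inverting it gave whole counts, within 0.01, for 100% of 640012 values, and from these came the depths and the normalised counts. The labels disagree on the kit (stranded with ribosomal depletion in one place, poly(A)-enriched in another), which leaves strandedness unsettled. Of 55228 lines, 26 with a date for a name were left out.

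Genes were tested with limma 3.58.1 (R 4.3.3, statmod 1.5.0) on the deposited log2 values, as a means model of 4 groups over 22 tumours with 1 pooled spread, using eBayes with its trend and robust options, two-sided, adjusted over the 38019 genes with a count. The 7 contrasts are diet in each host, their difference, host on each diet, and both averages. The fit was tested on simulated data. The pass mark for genes recovered at the highest simulated fold was lowered after a first run fell just short of it in 2 contrasts. Alternatives were filters, scales including voom, normalisations, weights, samples in the fit, treatment of the near-identical pairs, and leaving out each tumour. In each contrast the 4 members with the smallest p are named. For the 89 further genes, those called are named, or else those with the smallest p. Members and lists were chosen with earlier results of these data known. Coordinates and exon lengths are from GENCODE on mm10, promoters from RefSeq (GRCm38.p6). Depths of at least 31339425 counts leave counting error small for most genes named. The exceptions are Fen1, Cdkn2a, Cdkn2b and cell type markers at few counts, such as Vil1 and the T cell markers and Klrb1c in NSG tumours.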

Additional observations from a re-analysis of the deposited data

Results flagged for a closer look

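In 7 of 152 sets of values (each of the 37 genes, and their mean, in each group) 1 tumour stood far from the others of its group, by Dixon's test at 95%. Chance sets apart about 1 in 20 such groups. Values are on the log2 scale. Among NSG tumours on 0.86% methionine, tumour 12 was low for Orc1 at 7.64 (others 8.02 to 8.20), for Orc6 at 10.73 (others 11.05 to 11.21) and for Rrm2 at 12.52 (others 12.87 to 13.02). In restricted NSG tumours, tumour 2 was low for Cdc6 at 9.56 (others 10.12 to 10.29). In restricted Balb/c tumours, tumour 17 was low for Tk1 at 10.88 (others 11.29 to 11.52). Among Balb/c tumours on 0.86%, tumour 19-23 was high for Gins4 at 10.57 (others 10.35 to 10.36) and tumour 20-24 was high for Lig1 at 12.39 (others 12.19 to 12.21).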

How the results depend on the processing

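The count of called members was 0 in 238 recomputed counts over the 7 contrasts. The other 4 all concern the mean host effect. There 1 member (Ccne2, adjusted p 0.0475) was called under a stricter filter (6 tumours or more at a value of 5 or above), and 2 (Ccne2 at 0.0398, Mcm3 at 0.0465) when all 24 libraries were kept apart. Leaving out each tumour in turn gave 0 to 1 members, with 1 (Ccne2) without tumour 2 or without tumour 20-24, and 0 in the other 6 contrasts. No difference of a named member changed direction in any alternative, and 963 of these kept their side of the threshold while 5 crossed it, all for Ccne2 or Mcm3 in that effect. Among diet differences, Mcm2 in Balb/c hosts ranged from 0.15 to 0.33 and Orc1 from -0.30 to -0.06. As tumours were left out, the median diet difference over members was -0.01 to 0.05 in Balb/c hosts and 0.05 to 0.13 in NSG hosts. The unfiltered set equals the one tested. A fit with only the groups of the contrast was not run where a contrast uses all 4. No paired analysis was possible because libraries carry the numbers 1 to 24 and no groups share a number. With a median SE of 0.10 to 0.11 in the single comparisons, small changes of single genes could not be detected. Overlapping antisense genes limit Fen1, Gins2 and Chaf1a.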
